A study of Mus musculus with 8 samples.

Results

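Pleiotrophin (Ptn), midkine (Mdk), the syndecans Sdc1 to Sdc4 and the glypicans Gpc1, Gpc3 and Gpc4 were read on 8 mouse arrays. These 9 genes, of 12393 genes named on the arrays, were covered by 18 probe sets that name one of them alone. Sdc1 had 4 such probe sets, Sdc2 and Sdc3 had 3 each, Ptn and Sdc4 had 2 each, and Mdk, Gpc1, Gpc3 and Gpc4 had 1 each. The set was chosen by the signal of Ptn, which had the largest rise in starved knockout cells, so the starved comparison of genotypes is given for these genes as a description and without a test. The cells were embryonic day 11 (E11) mouse fibroblasts of 2 genotypes, Med23-/- knockout (KO) and wild type (WT), and both had been carried in culture through crisis, the stage after which an immortal line grows out. All cells were starved for 16 h in medium with 0.5% fetal bovine serum. They were then given serum to a final 20% for 30 min or kept starved, which gave 4 groups of 2 arrays each: KO serum, KO starved, WT serum and WT starved. The study asked which serum responses depend on MED23, a subunit of the Mediator complex that links transcription factors to RNA polymerase II. Each genotype comes from 1 kind of cell culture here, so the loss of MED23 and any other difference between the cultures cannot be told apart. The labels do not say whether replicates were separate cultures, so p-values measure only the spread between these arrays.

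Pleiotrophin and midkine are closely related secreted growth factors that bind heparin and heparan sulfate, and both are most abundant in the embryo and in growing or injured tissue. They bind the receptor phosphatase PTPRZ1, low-density lipoprotein receptor-related proteins, nucleolin and integrins, and the heparan sulfate chains of cell-surface proteoglycans. Syndecans carry these chains on a protein that spans the membrane, and glypicans carry them on a protein tied to the membrane by a lipid anchor. Syndecan-3 was described as a pleiotrophin receptor in rat neurons, where the ligand promotes the outgrowth of neurites.

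The arrays had median signals between 766 and 924, in the arbitrary units of the MAS5 algorithm. The Pearson r over all probe sets was 0.976 to 0.984 between replicates and 0.750 to 0.805 between arrays of different genotypes. Med23 read 34.6 and 36.9 on KO serum arrays and 28.0 and 132.5 on KO starved arrays, against 3595 and 3577 on WT serum arrays and 4901 and 5410 on WT starved arrays, so the targeted gene matched the labels. Of 12 fibroblast markers, 11 stood at or above the 40th percentile of the arrays in KO cells and 10 in WT cells, where Pdgfra was below it, and Thy1 was below it in all 4 groups. Of 7 epithelial and 6 endothelial markers at most 1 reached that level in any group. Of 7 muscle markers 4 reached it in KO and 3 in WT cells, and of 6 macrophage markers 2 reached it in KO and 1 in WT cells. The summed signal of 6 bone and cartilage markers was 5316 to 6834 on KO serum arrays and 21027 to 21454 on WT serum arrays, mostly through Col2a1, the main collagen of cartilage, which was lower in KO cells by -3.29 on the log2 scale (limma adjusted p = 6.13e-07). Of these 6, 3 reached that level in KO cells, 2 in WT serum and 1 in WT starved cells. Not all of them moved with Col2a1. Sox9 had mean signals of 2882 on KO serum and 1721 on WT serum arrays, and of 6141 and 545 on starved arrays. Alpl, at or above the 40th percentile on KO arrays only, averaged 595 on KO serum and 322 on WT serum arrays. Of the other 2 tested, 1 was higher and 1 lower in KO serum arrays by limma. The part of such cells in the differences between genotypes given below was not tested.

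The promoters of 6 of the 9 genes were found in the RefSeq table (build GRCm38.p6), which gives 250 bases before and 50 bases after each start site. The windows below belong to Ptn and Gpc4, which were higher in KO cells, to Sdc3, which was lower, and to Sdc4, which rose with serum on 1 of its probe sets. They were searched on both strands for the TATA box (TATAAA), the GC box (GGGCGG), the AP-1 site (TGANTCA), the ETS core (CCGGAA), the CArG box of serum response factor and the NF-kB motif, and capitals mark the matches.
Ptn, chr6:36810130-36810429, minus strand: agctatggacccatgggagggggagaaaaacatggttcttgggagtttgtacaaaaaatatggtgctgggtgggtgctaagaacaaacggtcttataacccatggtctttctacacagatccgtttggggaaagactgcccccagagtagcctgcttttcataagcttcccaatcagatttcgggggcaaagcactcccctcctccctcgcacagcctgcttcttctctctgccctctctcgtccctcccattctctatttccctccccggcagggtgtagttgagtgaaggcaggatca
Gpc4, chrX:52164874-52165173, minus strand: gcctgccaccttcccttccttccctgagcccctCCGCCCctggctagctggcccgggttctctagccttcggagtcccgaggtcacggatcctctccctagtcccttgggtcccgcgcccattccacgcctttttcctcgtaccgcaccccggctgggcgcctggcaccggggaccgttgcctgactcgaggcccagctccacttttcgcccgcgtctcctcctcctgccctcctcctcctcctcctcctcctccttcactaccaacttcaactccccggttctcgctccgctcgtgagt
Sdc3, chr4:130792287-130792586, plus strand: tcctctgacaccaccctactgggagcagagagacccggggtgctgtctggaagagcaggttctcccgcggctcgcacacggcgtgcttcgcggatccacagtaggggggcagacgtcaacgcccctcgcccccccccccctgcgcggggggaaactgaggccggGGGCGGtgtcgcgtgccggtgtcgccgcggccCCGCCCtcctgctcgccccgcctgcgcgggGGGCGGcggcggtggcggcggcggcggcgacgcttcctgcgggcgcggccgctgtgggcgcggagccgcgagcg
Sdc4, chr2:164443139-164443438, minus strand: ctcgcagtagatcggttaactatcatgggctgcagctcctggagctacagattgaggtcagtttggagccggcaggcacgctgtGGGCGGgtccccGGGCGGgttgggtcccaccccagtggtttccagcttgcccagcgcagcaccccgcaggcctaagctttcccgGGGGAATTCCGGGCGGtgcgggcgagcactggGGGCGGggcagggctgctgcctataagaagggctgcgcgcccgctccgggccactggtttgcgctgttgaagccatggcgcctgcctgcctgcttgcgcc
The Ptn window had a GC content of 52.0% and 6 CpG dinucleotides, and it held no match to any of these motifs. The Gpc4 window held 22 CpG dinucleotides and 1 GGGCGG match, and the Sdc3 window held 44 CpG dinucleotides and 3 GGGCGG matches. The Sdc4 window held 22 CpG dinucleotides, 4 GGGCGG matches, 1 match to the NF-kB motif that begins 82 bases before the start site, and 1 CCGGAA match on the opposite strand. The last of these overlaps both the NF-kB match and 1 of the GGGCGG matches. The median over all 32851 promoter windows was 7 CpG dinucleotides, and 35.7% of the windows held GGGCGG, 4.51% the NF-kB motif and 14.9% CCGGAA. The TATA box was found in 13.6%, the AP-1 site in 7.81% and the CArG box in 1.63% of the windows. A match is a stretch of letters and not a measured binding site.

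The ligands were the members with the widest gap between genotypes. Ptn was abundant in KO cells and near the bottom of the signal range in WT cells on both of its probe sets, in starved and in serum-stimulated cells alike. On probe set 1416211_a_at Ptn read 19178 and 19195 on KO serum arrays and 24157 and 30343 on KO starved arrays. The same probe set read 49.7 and 69.2 on WT serum arrays and 20.8 and 58.5 on WT starved arrays. These WT signals lay between the 6.3rd and 14.3rd percentiles of their arrays, while the KO signals lay between the 96.8th and 98.5th percentiles. Probe set 1448254_at gave Ptn signals of 18221 and 19653 on KO serum arrays and 17316 and 22868 on KO starved arrays. It gave 57.9 and 92.7 on WT serum arrays and 69.5 and 171 on WT starved arrays. No KO array overlapped a WT array on either probe set, and KO serum and KO starved arrays overlapped on the second probe set but not on the first.

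A probe set was tested if it stood at or above the 40th percentile of its array on at least 2 of the 8 arrays. Both Ptn probe sets met this only through KO arrays, so they could enter only if the genotypes differed, and the gap is given as a description without a test in both conditions. In serum-stimulated cells it was 8.004 on the scale of log2(signal + 16) with 1416211_a_at and 7.72 with 1448254_at. In starved cells, the comparison behind the choice of genes, the differences were 9.01 and 7.30. The next probe set below the first of these in starved cells belonged to Slit3, an axon guidance ligand, at 8.10. The size of a difference against WT signals this low depends on the added constant, and in serum-stimulated cells it was 8.33 with 1 added, 7.29 with 64 added and 5.95 with the largest constant tried for the first probe set. For the second it was 7.99 with 1 added, 7.10 with 64 added and 5.86 with the largest constant tried. Detection calls were not used here, and in bulk RNA fewer cells with a transcript and less of it per cell cannot be told apart.

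Midkine, the other ligand, followed the same order of genotypes with a smaller gap. Mdk read 7110 and 5562 on KO serum arrays and 7676 and 6132 on KO starved arrays, against 385 and 408 on WT serum arrays and 285 and 230 on WT starved arrays. The KO arrays were all far above the WT arrays, and all 4 WT signals were below the 40th percentile of their arrays. Like Ptn, Mdk thus passed the filter only through KO arrays, and its differences are given without a test. They were 3.94 in serum-stimulated and 4.66 in starved cells on the log2 scale. The serum-stimulated difference was 3.79 with 64 added to the signal and 3.33 with the largest constant tried.

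**Figure D1:**
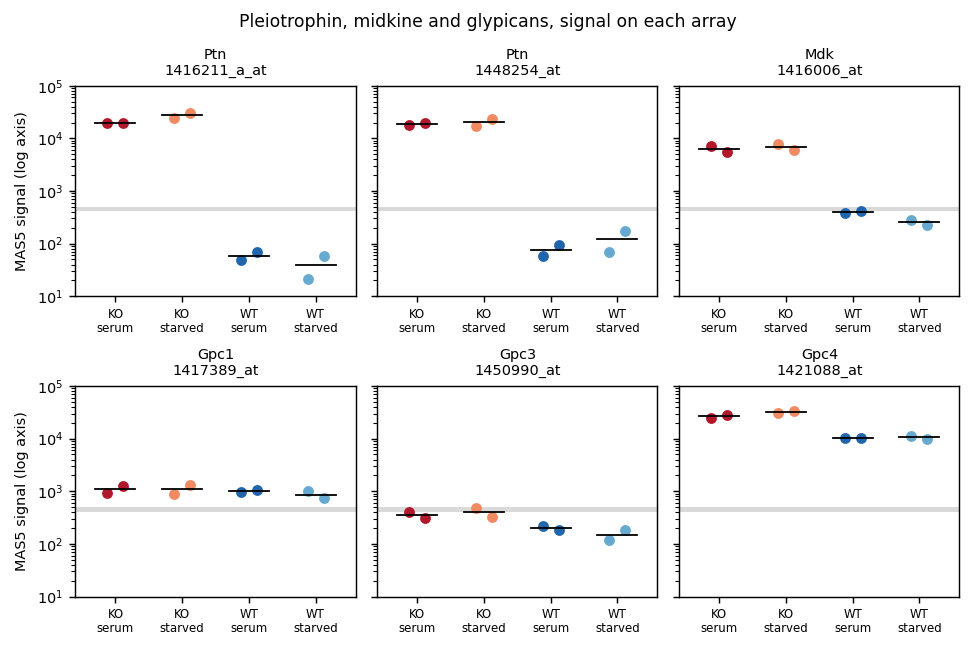
MAS5 signal (log axis) of the probe sets of Ptn, Mdk, Gpc1, Gpc3 and Gpc4 on each of the 8 arrays, by group, with 2 points and a bar for their mean in each group, and a grey band for the filter thresholds of the arrays (412.6 to 497.4). Ptn, Mdk and Gpc4 were higher on every KO array than on any WT array, and the Ptn, Mdk and Gpc3 points of WT cells lie below the band.

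Among the core proteins that carry heparan sulfate, Sdc2 and Gpc4 were higher and Sdc3 was lower in KO cells, and Sdc1, Sdc4 and Gpc1 did not pass the test. Syndecan-2 is the syndecan typical of mesenchymal cells. Its probe set 1417011_at read 16534 and 14380 on KO serum arrays and 16483 and 12989 on KO starved arrays, against 4618 and 4950 on WT serum arrays and 5404 and 4207 on WT starved arrays. The genotypes did not overlap, and the KO minus WT difference in serum-stimulated cells was 1.69 ± 0.16 (SE) on the log2 scale, a fold of 3.22 (limma adjusted p = 1.65e-05). In starved cells it was 1.61.

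The other Sdc2 probe sets gave smaller differences. Probe set 1448545_at read 9788 and 9551 on KO serum arrays and 11717 and 10989 on KO starved arrays, against 5945 and 5222 on WT serum arrays and 6875 and 6799 on WT starved arrays. Its difference in serum-stimulated cells was 0.79 ± 0.11 (SE) on the log2 scale (limma adjusted p = 0.000223), and in starved cells 0.73. Probe set 1417012_at read 5012 and 4771 on KO serum arrays and 4227 and 4383 on WT serum arrays. It read 6636 and 5623 on KO starved arrays and 4425 and 4736 on WT starved arrays, so the genotypes did not overlap. Its difference in serum-stimulated cells, 0.18 ± 0.12 (SE) on the log2 scale, did not pass (limma adjusted p = 0.239), and in starved cells it was 0.41. The 3 probe sets thus gave Sdc2 differences in serum-stimulated cells that ranged from 0.18 to 1.69 in the same RNA.

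Syndecan-3, the member tied to nervous tissue and developing muscle, was the only member gene called lower in KO cells. Sdc3 probe set 1450027_at read 2289 and 2825 on KO serum arrays and 3036 and 3619 on KO starved arrays, against 9001 and 10539 on WT serum arrays and 12488 and 10816 on WT starved arrays. Probe set 1436482_a_at read 473 and 595 on KO serum arrays and 798 and 811 on KO starved arrays, against 2205 and 2191 on WT serum arrays and 2243 and 2118 on WT starved arrays. On both of them every KO array was below every WT array. In serum-stimulated cells the KO minus WT differences on the log2 scale were -1.93 ± 0.15 (SE) for 1450027_at (limma adjusted p = 5.78e-06) and -2.02 ± 0.17 for 1436482_a_at (limma adjusted p = 8.12e-06). In starved cells they were -1.80 and -1.42.

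The remaining Sdc3 probe set, 1420853_at, read 1270 and 1400 on KO serum arrays against 1699 and 2220 on WT serum arrays. This probe set had no overlap of genotypes in either condition. Its difference of -0.54 ± 0.18 (SE) on the log2 scale passed narrowly (limma adjusted p = 0.0329), and it did not pass without KO serum array 1, KO serum array 2 or WT serum array 2 (limma adjusted p = 0.151, 0.0718 and 0.223), after quantile normalization (0.0817) or median centring (0.108), or with no filter (0.0531). Of 5 markers of neural and glial cells on the arrays, 3 passed the filter. Nes gave -3.50 on the log2 scale between KO serum and WT serum arrays (limma adjusted p = 2.28e-07). Tubb3, a neuronal tubulin, passed the filter only through WT arrays and gave -3.30 without a test, and Sox10, a neural crest factor, gave 0.53 and did not pass (limma adjusted p = 0.0552). The summed signal of the 5 lay between 1564 and 1711 on KO serum arrays and between 6922 and 7823 on WT serum arrays, mostly through Nes, which marks neural progenitors and other immature cells. The glial markers Gfap and S100b were below the 40th percentile of the arrays in all 4 groups. The part of such cells in the Sdc3 difference was not tested.

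Syndecan-1, best known from epithelia and plasma cells, was measured by 4 probe sets that gave no call between genotypes. Sdc1 probe set 1415943_at read 5757 and 5478 on KO serum arrays and 6505 and 5726 on KO starved arrays, against 5595 and 3976 on WT serum arrays and 5416 and 4765 on WT starved arrays. The KO and WT serum arrays overlapped on all 4 probe sets. The differences in serum-stimulated cells ran from -0.07 to 0.42 on the log2 scale, and the limma adjusted p from 0.156 to 1. Their 95% intervals ran at the widest from -0.68 to 0.68 (1415944_at) and reached 0.94 for 1437279_x_at, so changes under 2-fold are not excluded by these arrays.

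Syndecan-4, which sits in focal adhesions and binds protein kinase C alpha, also gave no call between genotypes. Sdc4 probe set 1448793_a_at read 17301 and 19616 on KO serum arrays against 18143 and 14330 on WT serum arrays, and the arrays overlapped. The difference was 0.19 ± 0.14 (SE) on the log2 scale, with a 95% interval from -0.13 to 0.51 (limma adjusted p = 0.294). Probe set 1417654_at gave -0.15, with an interval from -0.63 to 0.33 (limma adjusted p = 0.591).

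**Figure D2:**
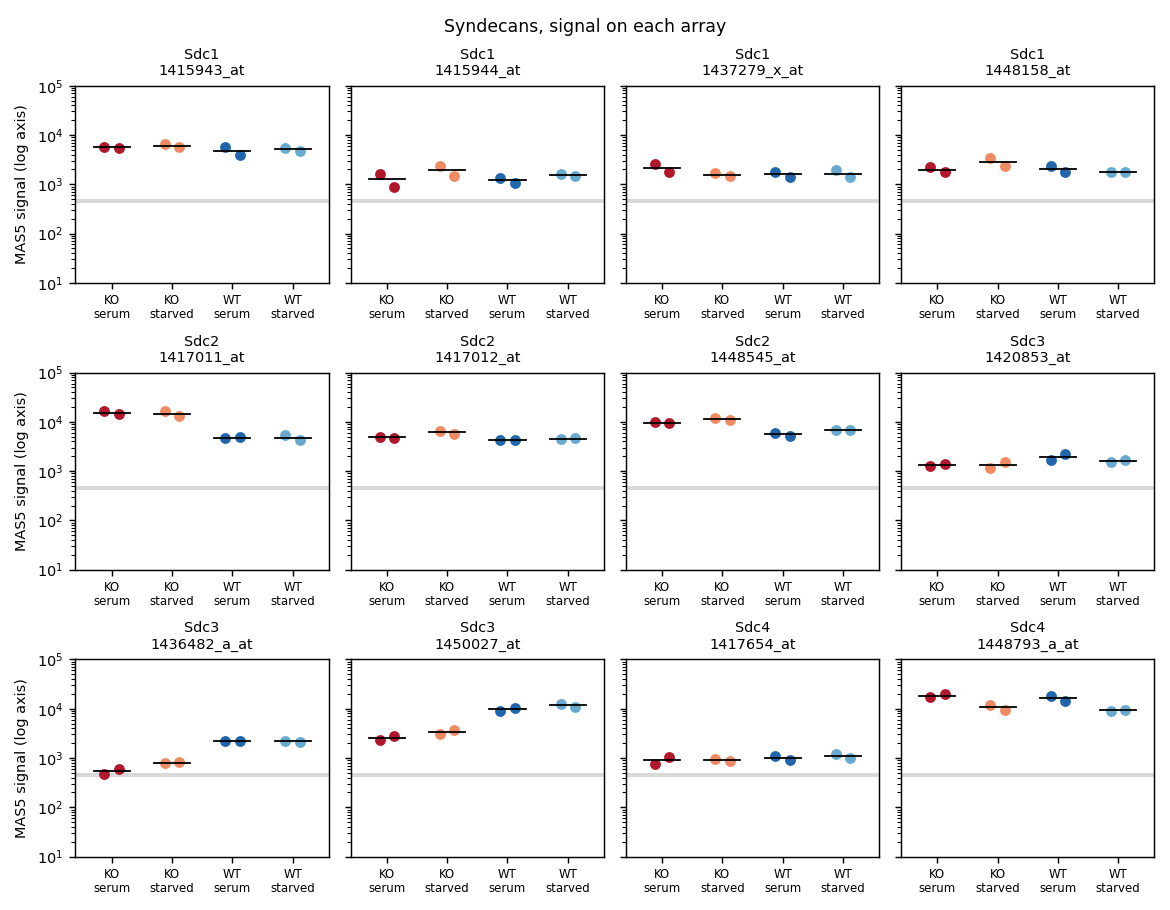
MAS5 signal (log axis) of the 12 syndecan probe sets on each of the 8 arrays, by group, with 2 points and a bar for their mean in each group, and a grey band for the filter thresholds of the arrays (412.6 to 497.4). Sdc2 1417011_at and 1448545_at are higher on all KO arrays, Sdc3 1436482_a_at and 1450027_at are lower on all KO arrays, and Sdc4 1448793_a_at is higher on serum arrays in both genotypes.

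Of the glypicans, Gpc4, which is known from neural and embryonic stem cells and as a factor that astrocytes release, was higher in KO cells. Gpc4 read 24430 and 28323 on KO serum arrays and 31267 and 33091 on KO starved arrays, against 10359 and 10459 on WT serum arrays and 11390 and 10056 on WT starved arrays. The genotypes did not overlap. In serum-stimulated cells the difference was 1.34 ± 0.11 (SE) on the log2 scale, a fold of 2.52 (limma adjusted p = 7.65e-06), and in starved cells it was 1.59, a fold of 3.003.

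Glypican-1, a widely expressed member, read 920 and 1250 on KO serum arrays against 970 and 1044 on WT serum arrays. The Gpc1 arrays overlapped, and the difference of 0.09 ± 0.25 (SE) on the log2 scale had a 95% interval from -0.46 to 0.64 (limma adjusted p = 0.779). Glypican-3, a regulator of embryonic growth, did not pass the filter and was not tested. Gpc3 read 406 and 304 on KO serum arrays and 484 and 321 on KO starved arrays, against 215 and 184 on WT serum arrays and 120 and 181 on WT starved arrays. The 2 genotypes did not overlap in either condition, and the differences were 0.77 in serum-stimulated and 1.33 in starved cells on the log2 scale.

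Counted over the family, 17 of the 18 probe sets passed the filter. Of these, 3 (both of Ptn and that of Mdk) entered only through KO arrays. Of the other 14, 6 passed the test in serum-stimulated cells, 3 higher in KO cells (Sdc2 and Gpc4) and 3 lower (all Sdc3), where 50.2% of all 14947 tested probe sets passed, 22.7% higher and 27.5% lower. The share of calls among the members is thus near that of all probe sets. By the study's own rule of a change over 2-fold, with no overlap of arrays, 7 of 17 member probe sets differed in serum-stimulated cells, or 4 of 14 without those of Ptn and Mdk, against 20.5% of all tested probe sets. In starved cells, the comparison the choice of genes used, the counts were also 7 of 17 and 4 of 14, against 19.3% of all. The same probe sets of Ptn, Mdk, Sdc2 (1417011_at), Sdc3 (1436482_a_at and 1450027_at) and Gpc4 made up both counts. The median difference of those 14 in serum-stimulated cells was 0.14, against -0.07 for all tested probe sets. The fibroblast markers moved with genotype too: Pdgfra passed the filter only through KO arrays, and of the other 10 tested 7 were higher and 0 lower in KO serum than in WT serum arrays, and their summed signal was 364269 to 385118 on KO serum arrays and 193156 to 210217 on WT serum arrays. After quantile normalization 7 of the 11, Pdgfra included, were higher and 2 lower, and their part in the differences of the members was not tested.

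**Figure D3:**
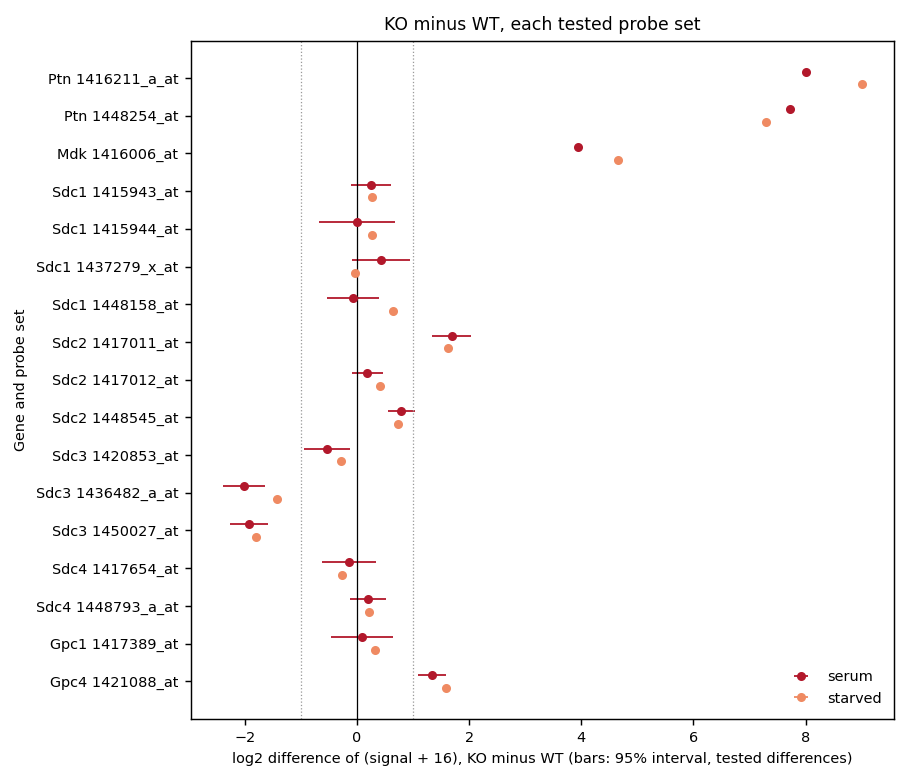
KO minus WT difference in log2(signal + 16) for the 17 tested member probe sets, in serum-stimulated cells (dark red, with 95% intervals except for Ptn and Mdk, which passed the filter only through KO arrays) and in starved cells (orange, values only, since that comparison was used to choose the genes). Dotted lines mark a 2-fold difference. Ptn lies between 7.30 and 9.01, Mdk at 3.94 and 4.66, and the 3 Sdc3 probe sets lie below 0 in both conditions.

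Serum for 30 min moved few of the members. In KO cells 2 of the 15 probe sets that could be tested passed, 1 up and 1 down, where 23.1% of all tested probe sets passed, 9.33% up and 13.8% down. In WT cells 1 of 17 passed, which rose, where 4.14% of all passed and 2.44% rose. The 17 include both Ptn probe sets, whose WT starved arrays also entered the choice of genes. By the 2-fold rule with no overlap, 0 of 17 member probe sets changed in either genotype, where 6.96% of all tested probe sets did so in KO and 3.03% in WT cells, while limma called those 2 and 1 and gave 6 of 15 and 3 of 17 at an unadjusted p under 0.05. These shares do not set the members apart from the rest of the array.

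Sdc4 was the member that rose with serum in both genotypes. On probe set 1448793_a_at Sdc4 read 17301 and 19616 on KO serum arrays against 11876 and 9591 on KO starved arrays, and 18143 and 14330 on WT serum arrays against 8968 and 9497 on WT starved arrays. Every serum array was above every starved array. The serum minus starved change was 0.79 ± 0.14 (SE) on the log2 scale in KO cells, a fold of 1.73 (limma adjusted p = 0.00413). It was 0.80 ± 0.14 in WT cells, a fold of 1.75 (limma adjusted p = 0.011). The changes differed between genotypes by -0.02 ± 0.20 (SE), with a 95% interval from -0.47 to 0.44 (limma adjusted p = 0.974). The WT call was lost without WT serum array 1, WT starved array 1 or WT starved array 2 (limma adjusted p = 0.104, 0.0784 and 0.052) and with no mean-variance trend (0.0544). The other Sdc4 probe set, 1417654_at, gave -0.01 in KO and -0.14 in WT cells on the log2 scale and did not pass (limma adjusted p = 0.978 and 0.805). The Sdc4 window printed above is the one with a match to the NF-kB motif, and it has no match to the CArG box.

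The other call in KO cells was a fall of Sdc3 on probe set 1436482_a_at, which read 473 and 595 on KO serum arrays against 798 and 811 on KO starved arrays. The change was -0.59 ± 0.17 (SE) on the log2 scale (limma adjusted p = 0.0309). It did not pass without KO serum array 1, KO starved array 1 or KO starved array 2 (limma adjusted p = 0.193, 0.068 and 0.084), after quantile normalization (0.0708) or median centring (0.0923), with no filter (0.053) or in a fit to the KO arrays alone (0.113). Over all tested probe sets the KO change had a median of -0.13. The other Sdc3 probe sets gave -0.38 for 1450027_at (limma adjusted p = 0.0998) and 0.00 for 1420853_at (limma adjusted p = 0.996).

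Of the ligands, Mdk gave no call for serum. Ptn is given without a test, since the starved arrays of both genotypes entered its choice. In WT cells Ptn changed by 0.51 on 1416211_a_at and -0.49 on 1448254_at, both on the log2 scale and at the low signals given above. In KO cells the values for Ptn were -0.50 and -0.07. Mdk changed by -0.13 in KO cells (limma adjusted p = 0.672) and by 0.60 in WT cells (limma adjusted p = 0.122), where both serum arrays stood above both starved arrays. Gpc4 gave -0.29 in KO cells (limma adjusted p = 0.0838) and -0.04 in WT cells (limma adjusted p = 0.901).

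The question of the study, whether the response to serum differs between genotypes, gave no member call. Of 15 member probe sets tested for the interaction 0 passed by limma, where 2.69% of all tested probe sets did, and 3 of the 15 had an unadjusted p under 0.05. The first of these was Mdk, with a response lower in KO than in WT cells by -0.72 ± 0.27 (SE) on the log2 scale (limma adjusted p = 0.184). The second was Sdc1 on 1448158_at, at -0.71 ± 0.29 (limma adjusted p = 0.227), which read 2202 and 1737 on KO serum arrays against 3356 and 2326 on KO starved arrays, and 2340 and 1802 on WT serum arrays against 1797 and 1785 on WT starved arrays. The other Sdc1 probe sets gave -0.01 (1415943_at), -0.27 (1415944_at) and 0.47 (1437279_x_at), so the sign was not shared. The last was Sdc3 on 1436482_a_at, at -0.60 ± 0.24 (limma adjusted p = 0.211). For Ptn the values were -1.01 and 0.42, without a test and with opposite signs on its probe sets.

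**Figure D4:**
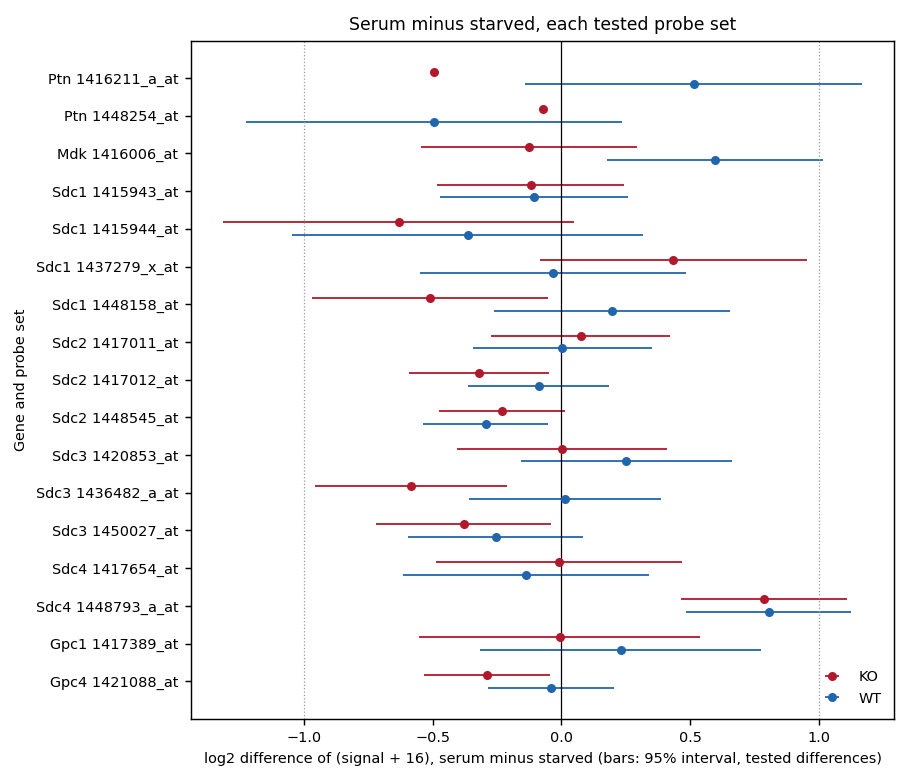
Serum minus starved change in log2(signal + 16) for the 17 tested member probe sets, in KO cells (red) and WT cells (blue), with 95% intervals. Ptn in KO cells has none because its starved KO arrays entered the choice of genes. The starved WT arrays entered that choice too, so the intervals drawn for Ptn in WT cells are not read as a test. Dotted lines mark a 2-fold change. Sdc4 1448793_a_at is at 0.79 in KO and 0.80 in WT cells, and no probe set lies past either dotted line.

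The receptors through which the ligands act were taken from a list of 18 genes, 13 of them tested. In serum-stimulated cells 6 were higher and 3 lower in KO cells, and 4 did not pass, beside 22.7% higher and 27.5% lower of all tested probe sets. With 50.2% of all probe sets called between genotypes, counts of this size in a list of genes are not read as a result about the list. Their median was 0.25, against -0.07 for all tested probe sets. Ptprz1, the receptor phosphatase of both ligands, had the largest difference of the list. On probe set 1452284_at Ptprz1 read 24514 and 25734 on KO serum arrays and 28913 and 22325 on KO starved arrays, against 465 and 1684 on WT serum arrays and 532 and 1868 on WT starved arrays. The WT arrays differed among themselves by over 3-fold but stayed far below the KO arrays, and the difference in serum-stimulated cells was 4.80 ± 0.58 (SE) on the log2 scale (limma adjusted p = 0.000103). It lay between 3.89 and 5.71 when 1 array was left out. The other Ptprz1 probe sets gave 4.47 for 1427019_at and 3.13 for 1418690_at. The latter is given without a test, since its WT signals of 88.1 to 177 were all below the filter and it passed only through KO arrays. In starved cells 7 of the 13 receptors were higher and 1 lower by limma, where 47.6% of all tested probe sets passed, 22.8% higher and 24.8% lower. The 1 lower call in starved cells was lost without KO serum array 1 or 2, WT serum array 1 or 2, or WT starved array 2. Ptprz1 differed by 4.65 there.

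Lrp6, a Wnt co-receptor that midkine also binds, was higher in KO cells by 1.18 (limma adjusted p = 2.14e-05), and Nrp1, a co-receptor for semaphorins and VEGF, by 0.93 (limma adjusted p = 3e-04). Itgb1, the beta chain of many integrins, was lower on 1452545_a_at, at -0.51 (limma adjusted p = 0.000909). Its other tested probe sets gave -0.28 (1426918_at) and -0.22 (1427771_x_at), with limma adjusted p = 0.0383 and 0.327. The 3 calls of lower receptors became 1 after median centring, and 1 without KO serum array 1 or WT serum array 1. Alk, a receptor tyrosine kinase linked to both ligands, did not pass the filter on low signals. None of the receptors passed for serum in WT cells or for the interaction, while in KO cells 2 of 13, Lrp1 and Ptprs, were lower after serum, at -0.38 and -0.36 (limma adjusted p = 0.0252 and 0.032). Both were lost without KO serum array 1, KO serum array 2 or KO starved array 2. Leaving out 1 array lost the Lrp1 call in 3 and the Ptprs call in 4 of 8 fits. Both were also lost after median centring (limma adjusted p = 0.178 and 0.208). On probe sets outside this count, Ptprs gave -0.73 (1426795_at) and -0.64 (1427688_a_at) after serum in KO cells (limma adjusted p = 0.0145 and 0.00824). Lrp6 gave -0.96 on 1451022_at (limma adjusted p = 0.00996) and -0.22 on 1428500_at (limma adjusted p = 0.197).

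The enzymes that build and edit heparan sulfate numbered 20 tested of 31 listed, 1 of which, Hs3st3a1, passed the filter only through WT arrays. Of the other 19, 1 was higher and 5 were lower in KO serum than in WT serum arrays, beside 22.7% higher and 27.5% lower of all tested probe sets, and their median was -0.26. Hs2st1, which adds sulfate at the 2-O position, was lower by -1.21 on the log2 scale (limma adjusted p = 2.73e-05). Ext1, a subunit of the polymerase of the chain, read 6857 and 7534 on KO serum arrays against 14013 and 15276 on WT serum arrays, a difference of -1.02 (limma adjusted p = 3.35e-05). B3gat3, which completes the linker between chain and core protein, gave -0.83 (limma adjusted p = 0.00113). Hs3st3a1, a 3-O-sulfotransferase, gave -3.62 without a test, at KO serum signals of 23.2 and 38.5. By limma over all 20, Hs3st3a1 included, 6 were lower. With a filter at the 60th percentile 3 of the enzymes were lower and 1 higher, of 15 tested, and after median centring 5 were lower and 3 higher.

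Serum lowered 6 of the 20 enzymes and raised 1 in KO cells, where 13.8% of all tested probe sets fell and 9.33% rose, but only 1 was lower without KO serum array 1 and 2 without KO serum array 2. Ndst2, an N-deacetylase and N-sulfotransferase of the chain, fell by 0.77 on the log2 scale in KO cells (limma adjusted p = 0.00475). In WT cells 0 of the 20 passed by limma, and Ndst2 gave -0.52 (limma adjusted p = 0.0831). B3gat3 was the enzyme that passed for the interaction, at -0.93 (limma adjusted p = 0.0473), and the call was lost in all 8 fits that leave out 1 array.

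Of 12 tested among the 18 other proteoglycans, 3 passed the filter in 1 genotype only (Fmod and Lum in KO, Acan in WT cells). The other 9 passed the test in serum-stimulated cells, 4 higher and 5 lower in KO cells, where 50.2% of all tested probe sets passed. Vcan, the large hyaluronan-binding versican, read 13580 and 12369 on KO serum arrays against 2013 and 1998 on WT serum arrays, a log2 difference of 2.68 (limma adjusted p = 1.47e-07). Fmod, a small collagen-binding proteoglycan, gave 3.79 without a test, since all its WT signals were below the filter, and Gpc6, another glypican, gave 1.64 (limma adjusted p = 1.46e-05). Agrn, a basement membrane proteoglycan with heparan sulfate, read 2519 and 2730 on KO serum arrays against 12652 and 10915 on WT serum arrays, a log2 difference of -2.16 (limma adjusted p = 6.15e-07). Agrn was also the one proteoglycan that passed for serum in KO cells, at -0.60 (limma adjusted p = 0.00669), which was lost without KO serum array 1 (0.0614).

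Of 12 tested partners of syndecans and glypicans, 2 were higher and 3 lower in KO serum than in WT serum arrays, beside 22.7% and 27.5% of all tested probe sets, and 5 were lower after quantile normalization. Cask, a scaffold that binds syndecan tails, was higher by 1.17 on the log2 scale (limma adjusted p = 2.34e-05). Adam17, a protease that sheds syndecans, was higher by 0.83 on 1421858_at (limma adjusted p = 0.000766). Its other probe sets gave 0.58 (1421857_at) and 0.28 (1421859_at), with limma adjusted p = 0.00987 and 0.173. Prkca, the kinase bound by syndecan-4, gave -1.11 (limma adjusted p = 0.000143), and Tiam1, a Rac activator, gave -1.06 (limma adjusted p = 0.000458). Timp3, a metalloprotease inhibitor that binds heparan sulfate, rose with serum by 0.99 in KO cells (limma adjusted p = 8e-04) and by 0.66 in WT cells (limma adjusted p = 0.0224). The WT call of Timp3 on this probe set, 1449335_at, was lost without WT serum array 1 or WT starved array 2. Its WT change ran from 0.50 to 0.82 when 1 array was left out. The other Timp3 probe sets rose in WT cells by 1.17 (1419088_at), 0.81 (1419089_at) and 0.90 (1449334_at), with limma adjusted p = 0.00263, 0.00196 and 0.00213.

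Among the other heparin-binding growth factors and their receptors 14 were tested, of which Fgf18 and Angptl4 passed the filter only through KO arrays. Of the other 12, 4 were higher and 5 lower in KO serum than in WT serum arrays, where 50.2% of all tested probe sets passed. Fgfr3, an FGF receptor, was higher in KO cells by 3.73, given without a test. Its WT signals were 507 and 205 with serum and 407 and 222 starved, against filter thresholds of 412.6 to 497.4. It thus could not meet the filter without its KO arrays. Fgf7, an FGF that fibroblasts make for epithelia, read 1502 and 1632 on KO serum arrays against 22903 and 16735 on WT serum arrays, a log2 difference of -3.63 (limma adjusted p = 3.64e-07). Pdgfb, a chain of platelet-derived growth factor, gave -5.26 without a test. Its KO signals were 377 and 356 with serum and 223 and 608 starved, so it could not meet the filter without its WT arrays. The counts above include Fgfr3 and Pdgfb. Hbegf, an EGF receptor ligand, gave -1.32 (limma adjusted p = 6.83e-05).

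Hbegf and Vegfa were the listed factors that rose with serum in both genotypes. Hbegf read 11046 and 13735 on KO serum arrays against 682 and 590 on KO starved arrays, and 33172 and 28607 on WT serum arrays against 2629 and 3057 on WT starved arrays. Its change was 4.25 in KO cells (limma adjusted p = 5.79e-08) and 3.43 in WT cells (limma adjusted p = 8.02e-07), both on the log2 scale. Vegfa, the endothelial growth factor, rose by 1.17 in KO cells (limma adjusted p = 8.77e-05) and by 2.07 in WT cells (limma adjusted p = 2.98e-06). Pdgfb rose in WT cells by 2.34 (limma adjusted p = 0.00372) and gave -0.01 in KO cells (limma adjusted p = 0.981). The response of Vegfa (1420909_at) was smaller in KO cells, by -0.91 (limma adjusted p = 0.0184). For Pdgfb (1450414_at) the value was -2.36. It is given without a test, since Pdgfb could not meet the filter without its WT arrays. The Vegfa call was lost in 6 of the 8 fits that leave out 1 array. The differences ran from -0.96 to -0.85 for Vegfa and from -3.05 to -1.67 for Pdgfb in those fits. On the other probe sets, Vegfa 1451959_a_at gave -1.39 (limma adjusted p = 0.00745) and Pdgfb 1450413_at gave -2.51 without a test. The KO signals of 1450413_at were all below the filter thresholds. Fits that leave out 1 array are not given for these other probe sets.

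**Figure D5:**
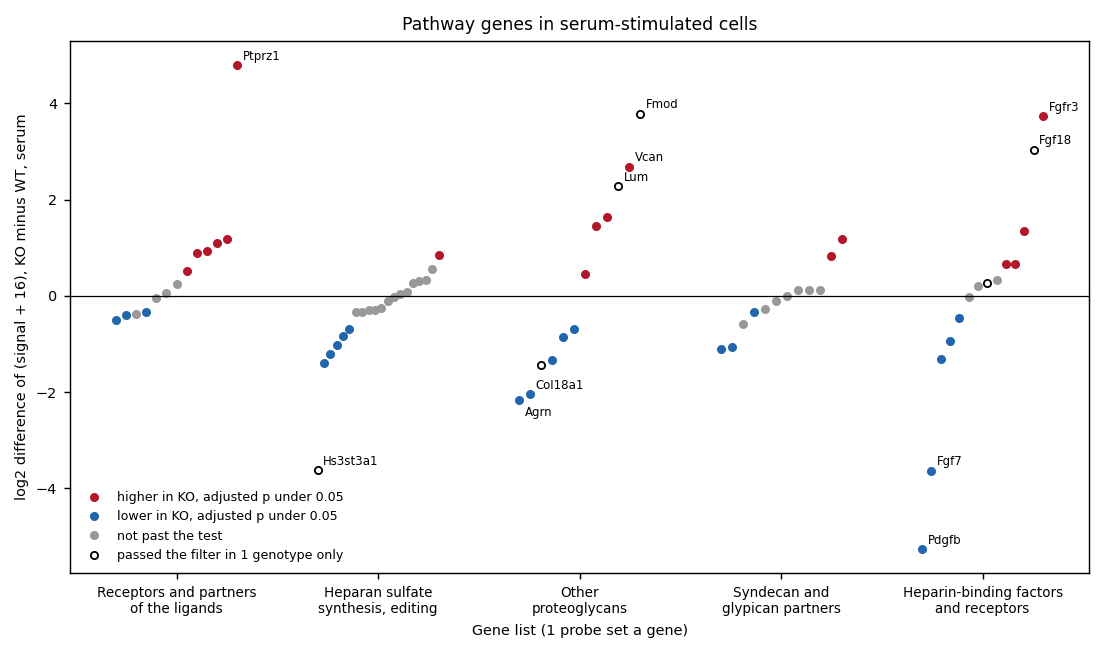
KO minus WT difference in log2(signal + 16) in serum-stimulated cells for the tested genes of 5 lists, with 1 probe set a gene, ordered within each list by the difference. Red and blue points passed at an adjusted p under 0.05, grey points did not, and open points are genes that passed the filter in 1 genotype only. Fgfr3 and Pdgfb are coloured, although each could not meet the filter without its higher genotype. Ptprz1 is highest at 4.80 and Pdgfb lowest at -5.26.

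Genes with a pattern like that of Ptn were ranked by the root mean square difference between their 8 centred log2 values and those of Ptn probe set 1448254_at. The nearest was Svep1, a large extracellular matrix protein, at 0.247, and its mean signals were 20525 on KO serum arrays and 24165 on KO starved arrays, against 85.6 on WT serum arrays and 172 on WT starved arrays. Sfrp1, a secreted Wnt inhibitor, followed at 0.304, then Cited1, a transcriptional co-regulator, at 0.391, the amino acid transporter gene Slc38a4 at 0.396 and Slit3 at 0.486. All 5 were high in KO and low in WT cells, with differences in serum-stimulated cells between 7.39 and 7.66 on the log2 scale. The other Ptn probe set stood at 0.634. The likeness over 8 arrays that fall into 2 genotypes is set by the gap between genotypes and by noise at low WT signals.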

How the data were processed

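Total RNA from 8 samples was labelled with biotin and run on 1 array each. The deposited values are signal intensity per probe set on a linear scale, made by the authors with MAS5 per the submitters' processing notes. The MAS5 version and the array platform are not given in the sources used here, and probe sets were named through the annotation table supplied for them.

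The table held 22690 probe sets. Without control probe sets 22626 remained, and the 14947 (66.1%) at or above the 40th percentile of their array on at least 2 of 8 arrays were tested. Values were analysed as log2(signal + 16), with no further normalization, in limma 3.58.1 (R 4.3.3). The fit had 4 group means, eBayes with a mean-variance trend, and 4 residual and 6.07 prior degrees of freedom. Tests were two-sided, and p-values were adjusted by Benjamini-Hochberg over all tested probe sets. A call was an adjusted p under 0.05. An exact permutation test of 2 arrays against 2 cannot give p under 0.333, so the calls rest on the pooled spread, and the number of arrays limits the precision.

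The members, the gene lists and the tests were chosen with earlier results of these data known, and the lists support nothing by themselves. Named were all member probe sets, Med23, up to 4 called genes of each list with the smallest p in each tested comparison, and the 5 genes most like Ptn. Not every list gene so ranked for serum in KO cells is described. Each listed gene was read on its brightest probe set by mean log2 signal. Different probe sets of a gene were kept apart, and no probe set's level was set against another's. The letters a, s and x in probe set names mark sets that may match several transcripts or genes. Alternatives were pseudocounts of 1, 64 and 256, quantile normalization, median centring, no filter or a 60th percentile filter, no trend, a fit without the other 2 groups, a block on set number, and leaving out each array. The procedure was tested on simulated data. Figures were drawn with matplotlib 3.10.9.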

Additional observations from a re-analysis of the deposited data

How the results depend on the processing

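Of 1503 recomputed values of single member probe sets, 1449 stayed on their side of the threshold or, where not tested, within 1 SE of the main difference. A further 17 lost a call, 5 gained one and 0 called values reversed. The remaining 32, not tested, moved by more than 1 SE. The 2 member calls for serum in KO cells became 1 after quantile normalization, median centring, with no filter or in a fit to the compared arrays only. The 1 call for serum in WT cells became 0 with no mean-variance trend. Over all tested probe sets the 402 interaction calls became 250 with no filter and 214 with no trend. Of 908 values that were not called, 58 changed sign. The causes were not tested.

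Leaving out 1 array gave these ranges. Member counts were 7 to 7 in starved cells, 8 to 10 between genotypes in serum-stimulated cells, 1 to 2 for serum in KO cells, 0 to 1 for serum in WT cells and 0 to 0 for the interaction. Over all probe sets the starved count by the 2-fold rule (2881) ran from 2852 to 3051, and the adjusted calls ran from 5426 to 7885 between genotypes in serum-stimulated cells (7506). For serum in KO cells they ran from 1573 to 3226 (3455), with 1573 without KO serum array 1 and 1779 without KO serum array 2. For serum in WT cells they ran from 316 to 699 (619), with 337 and 398 without WT serum array 1 or 2, and 316 and 332 without WT starved array 1 or 2. For the interaction they ran from 127 to 501 (402), with 127 and 176 without KO serum array 1 or 2, 210 and 163 without WT serum array 1 or 2, and 208 and 198 without WT starved array 1 or 2.

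The labels number the arrays of each group as set 1 and 2. The set 2 minus set 1 differences correlated at 0.214 between WT serum and WT starved arrays and at 0.097 between KO serum and KO starved arrays. Between groups of different genotypes the correlations were -0.034 to 0.006. Whether the numbers pair samples within a genotype was not tested further. The block used here is 1 term shared by both genotypes, so it cannot take up a set effect in WT arrays alone. With the set number as a replicate block the member counts were 10, 3, 1 and 0 for the genotypes in serum-stimulated cells, serum in KO cells, serum in WT cells and the interaction, and 7 in starved cells. The added calls were Sdc1 1437279_x_at between genotypes (0.42, limma adjusted p = 0.0487) and Sdc1 1448158_at for serum in KO cells (-0.51, limma adjusted p = 0.0436). Signals near the bottom of the range, as for Ptn in WT cells, limit the size of a fold. The untested interaction of Ptn 1448254_at was 0.42 and became -0.14 without WT starved array 2. With the largest constant added to the signal the differences of Ptn in serum-stimulated cells were 5.95 and 5.86, and that of Mdk was 3.33. Counts between genotypes here include Ptn and Mdk, which passed the filter only through KO arrays. Counts for serum in WT cells include Ptn, whose WT starved arrays entered the choice of genes.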
